A study of Mus musculus with 16 samples.

Results

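The axon guidance ligand and receptor families were followed by ATAC-seq, an assay in which a transposase cuts accessible DNA, in mouse retinal ganglion cells in naive mice and at 3 stages of experimental autoimmune encephalomyelitis (EAE). Members were taken by name from the deposited gene table. Names beginning with Epha, Ephb, Efna, Efnb, Sema3 to Sema7, Plxna to Plxnd, Robo or Unc5 were kept, together with Slit1, Slit2, Slit3, Nrp1, Nrp2, Dcc, Neo1, Ntn1, Ntn3 and Ntn4, and names ending in "os" were dropped. This gave 72 of the 37255 intervals in the table. Of these, 69 were guidance ligands or receptors of 16 families, and 3 (Unc50, Unc5cl and Plxna4os1) matched by the start of their name only. A filter on low counts kept 71 of the 72 members (29902 intervals in all), and Plxna4os1, a transcript antisense to the plexin gene Plxna4, was the member not tested.

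Growing axons are steered by 4 large ligand-receptor systems. Ephrins are membrane-bound ligands of the Eph receptor tyrosine kinases, semaphorins signal through plexins with neuropilins as co-receptors, Slits are secreted ligands of Robo receptors, and netrins attract axons through DCC and neogenin and repel them through Unc5 receptors. In the visual system these molecules are known for building the path of ganglion cell axons: EphA gradients and ephrins-A order the map in the midbrain, EphB1 and ephrin-B2 sort axons at the optic chiasm, netrin and DCC lead axons out at the optic disc, and Slits with Robos keep them in their tract. Many of the genes remain in use in adult neurons and glia.

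The cells came from the eyes of female mice and were isolated by flow cytometry as retinal ganglion cells, whose axons form the optic nerve. Naive mice were the control group without EAE (n = 5 libraries). An age of 7 to 8 weeks is recorded for all 16 libraries, the naive ones included. In the other groups EAE, an inflammatory disease of central nervous system myelin in which the optic nerve can be affected, had been induced at 7 to 8 weeks of age, and cells were taken at the presymptomatic stage (n = 4), at disease onset (n = 3) and at disease peak (n = 4). Strain, genotype and the number of mice per library are not given in the sources used here, and the labels do not say that libraries stem from separate mice, so the p-values given here reflect how far libraries of a stage differ, which may be in part technical. Bulk signal cannot tell fewer cells of a type from less signal per cell.

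Libraries held between 1576127 (peak replicate 4) and 15137932 (naive replicate 2) nuclear reads in gene intervals, and mitochondrial intervals took 8.36% (onset replicate 3) to 64.7% (naive replicate 4) of all interval reads. The interval of a gene spanning more than 2000 bp, as every member does, is its body without the outer 1000 bp at each end. Exons and introns are then counted together, and the region around the start of transcription is not counted. For a shorter gene the length used is 2000 bp less its span, so its interval is not a trimmed body. Intervals of olfactory and vomeronasal receptor genes, which ganglion cells are not known to use, took 0.192 to 0.562% of nuclear reads. The share reached 0.562% in naive replicate 3, 0.495% in naive replicate 4 and 0.487% in replicate 3 of peak, with at most 0.389% elsewhere, and these libraries also stood apart in several guidance genes. Onset replicate 3 stood apart in its low mitochondrial share and in its scaling factor of 2.02, against 0.666 to 1.32 in the other libraries. The factor acts on a library total that includes mitochondrial reads, so it is not independent of the mitochondrial share. The 72 members took between 0.962% (onset replicate 3) and 1.32% (naive replicate 3) of nuclear reads, while their intervals made up 1.07% of the nuclear sequence counted and 0.193% of the rows.

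Guidance genes are long. Of the 69 guidance genes, 33 (47.8%) spanned 100 kb or more, against 9.34% of all nuclear genes tested. The longest were Robo2 (1555 kb), Dcc (1098 kb), Robo1 (1019.9 kb) and Epha6 (969 kb). All 3 Slit genes passed 100 kb, as did both neuropilins, both class 5 semaphorins and both DCC receptors. The 3 ephrins-B and the class 7 semaphorin did not, and ephrins-A did so for 1 of 5. Several members lie next to each other in the deposited coordinates, whose build is not named in the sources used here. Robo4 ended 2.02 kb before Robo3 on chromosome 9. The ephrins Efna1, Efna3 and Efna4 followed each other on chromosome 3 with gaps of 32.9 and 10.4 kb, and Ephb2 lay 93.4 kb from Epha8 on chromosome 4. Sema3d, Sema3a and Sema3e, which encode secreted semaphorins, stood in a row on chromosome 5 with gaps of 536 and 419 kb.

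Another row of the table lay within the counted interval of 27 members, so their reads can also stem from that row's gene. Ntn3 overlapped Tbc1d24 in this way, and Plxna4 overlapped its antisense transcript Plxna4os1. The intervals of Slit2 and Slit3 contain the hairpins of Mir218-1 and Mir218-2, microRNA genes that lie inside these ligand genes. They are shown because both hairpins give the same mature 5p strand, which is known to act on Robo1, a receptor of the Slits. The sequences are those of RefSeq (table of build GRCm38.p6), both hairpins were matched by symbol, and capitals mark the seed, bases 2 to 8:
mmu-miR-218-5p: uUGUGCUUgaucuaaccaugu
mmu-miR-218-1-3p: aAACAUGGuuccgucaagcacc
mmu-miR-218-2-3p: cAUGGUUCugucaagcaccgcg
The seed of the 5p strand is shared, and the seeds of the 3p strands differ. The hairpins span 110 bp each, less than the trimmed ends, so no accessibility is given for them apart from that of Slit2 and Slit3.

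In naive cells the guidance genes lay above the typical interval in accessibility per length. Levels are given as nuclear reads per kb of counted interval on a reads-per-million scale without TMM factors, here called density. The median over the 69 guidance genes was 0.923, against 0.617 over all 35258 intervals of at least 500 bp. Genes shorter than 2000 bp, whose intervals are not trimmed bodies, are among the 35258. Guidance genes ranked at a median percentile of 73.6, and 61 of 69 lay above the 50th. Intervals of all genes of 100 kb or more had a median density of 0.796, between these values, and the 33 guidance genes of that length had 0.897. Markers of ganglion cells ranked higher still, at a median percentile of 82.5. Above these stood the markers of rods, at 87.9, and of amacrine and horizontal cells, at 91.6.

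The highest densities among members were those of Ntn3, a netrin gene, at 3.99 ± 2.04 (SD, n = 5), Sema4c at 2.25 ± 1.19, Efnb2 at 2.08 ± 0.413, Sema4b at 2.06 ± 1.04 and Efnb1 at 1.83 ± 0.595. Sema4c and Sema4b encode membrane-bound semaphorins, and Efnb1 and Efnb2 ligands of EphB receptors. The lowest were those of Efna2 (0.291 ± 0.198), Ephb4 (0.362 ± 0.139), Neo1 (0.432 ± 0.175), Sema3f (0.517 ± 0.205) and Efna4 (0.518 ± 0.305). Neogenin, the product of Neo1, was thus the lowest of the long receptors. Neighbours in this order did not separate: in 0 of 68 adjacent pairs was the gap larger than the greater SD. The coefficient of variation between naive libraries had a median of 32.6% and ran from 6.37 to 73.4%.

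**Figure D1:**
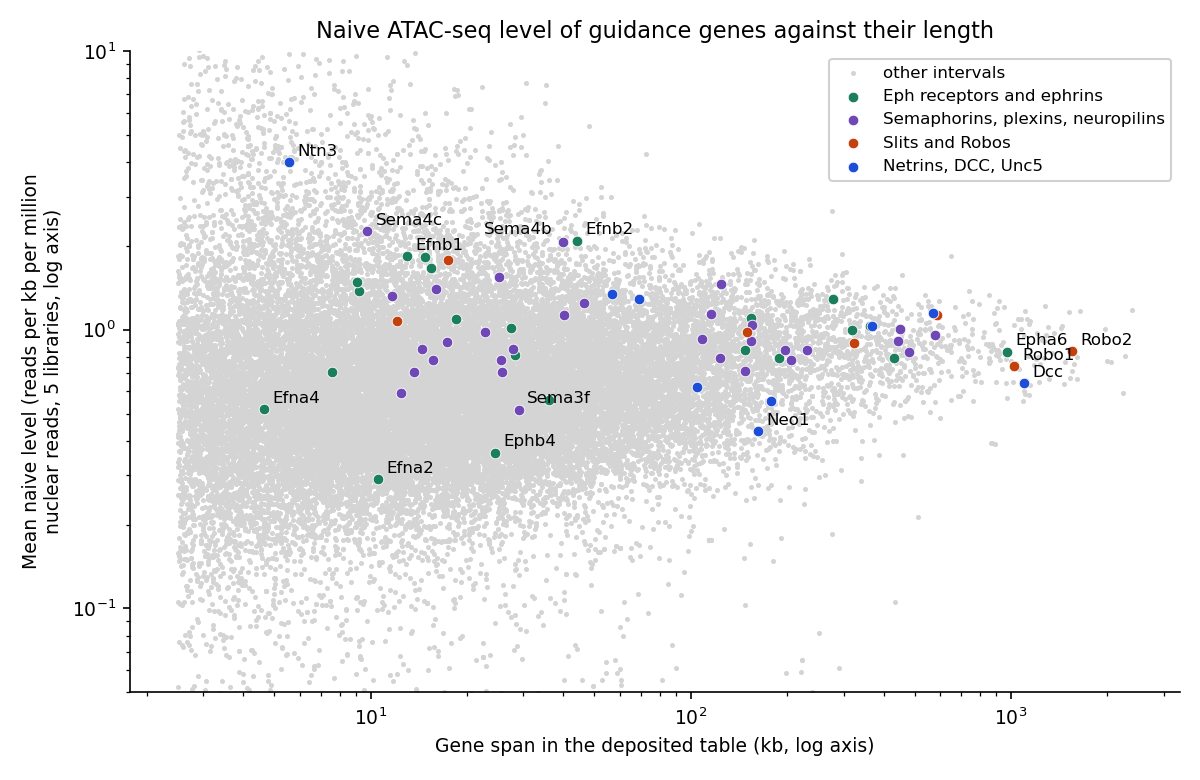
Mean density in the 5 naive libraries (reads per kb on the reads-per-million scale, log axis) against gene span (kb, log axis), with guidance genes coloured by system and all other nuclear genes spanning over 2.5 kb in grey (points outside the axis range are not drawn). Ntn3 stands highest among members at 3.99 and Efna2 lowest at 0.291, and the genes near 1000 kb and beyond lie between 0.643 and 0.837.

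By family, ephrins-B had the highest median density (1.83, range 0.704 to 2.08, 3 genes), followed by ephrins-A (1.29, 0.291 to 1.49, 5 genes), class 4 semaphorins (1.24, 0.849 to 2.25, 6 genes) and Unc5 receptors (1.22, 1.03 to 1.34, 4 genes). EphA receptors had a median of 0.999 (0.560 to 1.82, 9 genes), Slits 0.984 (0.897 to 1.13, 3 genes), Robos 0.956 (0.739 to 1.78, 4 genes) and plexins 0.907 (0.702 to 1.396, 9 genes). Class 3 semaphorins (0.834, 7 genes), EphB receptors (0.792, 5 genes) and the 2 DCC receptors (0.538) stood lowest of the receptor and ligand families with the netrins (0.624, 3 genes). Ligands as a whole (34 genes, median 0.938) and receptors (35 genes, 0.911) differed little.

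The 3 EAE stages were each compared with naive cells. No guidance gene passed the threshold at any stage: at an adjusted p under 0.05 in edgeR's quasi-likelihood test, 0 of 71 members were called in each comparison, as were 0 of all 29902 genes tested (0%). At an unadjusted p under 0.05, 0 members stood out at the presymptomatic stage (1.16% of all genes), 6 at onset (4.95% of all genes) and 2 at peak (3.61% of all genes). By DESeq2 these counts were 0, 5 and 1, and by limma on log2 CPM 1, 2 and 1, each with 0 members past the adjusted threshold. Shares of all genes at an unadjusted p under 0.05 are given for the main edgeR fit only. Under other methods, or without a library, a changed count of members can thus not be told from a change over all genes. DESeq2 called 1 of all genes at peak, no member, and 0 at the other stages. The test over all stages at once called 0 members, with 0 at an unadjusted p under 0.05 (3.16% of all genes).

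The depth allowed larger changes to be bounded for most members. The 95% interval of the fold change lay within a 2-fold change either way for 63 of 71 members at the presymptomatic stage, 46 at onset and 49 at peak. The standard error of the log2 fold change at onset had a median of 0.30 and ran from 0.20 to 0.97. It was widest for Efna4, a short ephrin gene with 0 to 25 reads per library.

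The middle of the families moved little against that of all genes. The median log2 fold change of the 71 members was -0.06 at the presymptomatic stage (all genes: -0.06), -0.03 at onset (all genes: -0.01) and -0.14 at peak (all genes: -0.03). Values below 0 were found for 46 of 71 members at the presymptomatic stage (58.4% of all genes), for 37 of 71 at onset (51.4% of all genes) and for 53 of 71 at peak (52.9% of all genes). Scaled by nuclear totals alone, the members below 0 numbered 35, 32 and 44. The 3 comparisons share the naive libraries, so their directions are not independent.

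**Figure D2:**
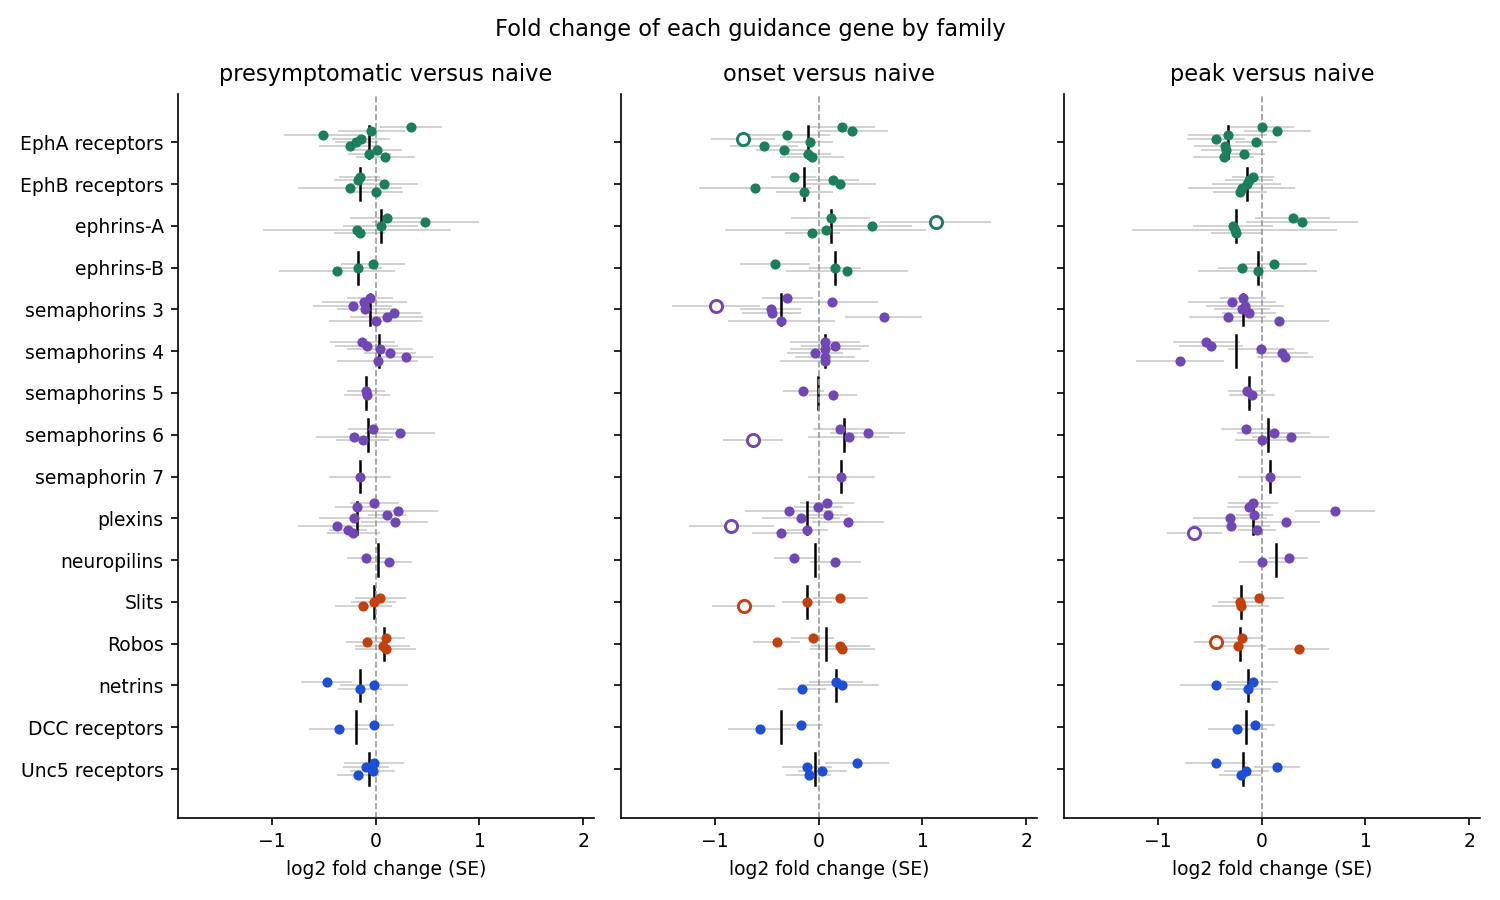
Log2 fold change (x axis) of each of the 69 guidance genes against naive cells, one row per family, for the presymptomatic, onset and peak stages. Points are genes, grey bars 1 SE, black ticks the family median, and open circles genes with an unadjusted p under 0.05 (0, 6 and 2 genes). At peak 52 of the 69 points lie left of 0, against 45 at the presymptomatic stage and 36 at onset.

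Eph receptors, the tyrosine kinases that read ephrins, gave values below 0 for 9 of 14 genes at the presymptomatic stage, 10 at onset and 12 at peak, with medians of -0.10, -0.12 and -0.18. With scaling by nuclear totals these counts were 7, 9 and 10. Epha3, a receptor of ephrins-A (chromosome 16, 63545218 to 63864157, minus strand), had the smallest p of the group at onset. Its normalised counts were 117, 94.6, 287, 211 and 159 counts-per-million (CPM, scaled by TMM factors) in naive replicates 1 to 5. They were 111, 178, 159 and 184 in the presymptomatic libraries, 94.9, 133.9 and 85.5 at onset and 97.4, 123, 206 and 85.5 at peak. Naive replicates 3 and 4 and peak replicate 3 were the high libraries, and all other libraries of naive, onset and peak lay between 85.5 and 159, so the groups overlapped. At onset the log2 fold change was -0.73 ± 0.31 (SE; unadjusted p = 0.0266, edgeR adjusted p = 0.972).

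Epha5, another receptor of ephrins-A with a known graded pattern in the retina, showed the same libraries on top: 366 CPM in naive replicate 3, 223 in naive replicate 4 and 256 in peak replicate 3, against 85.1 to 208 elsewhere. Its log2 fold change was -0.25, -0.52 and -0.35 at the presymptomatic, onset and peak stages. Epha6, the longest Eph gene, averaged 441 ± 153 CPM (SD, n = 5) in naive cells, 445 ± 77.7 (n = 4) at the presymptomatic stage, 349 ± 113 (n = 3) at onset and 347 ± 107 (n = 4) at peak. Epha4, which binds ephrins of both types, was tight in naive cells, with 63.9 to 69.2 CPM, and all 4 presymptomatic libraries lay below that range at 55.0 to 62.9. Its onset (50.8 to 71.9) and peak (49.7 to 95.1) libraries overlapped the naive range. Libraries all below naive were found at the presymptomatic stage for 0.482% of all genes, and among members for Epha4 and Plxnc1. No member's presymptomatic libraries lay all above naive (0.365% of all genes).

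EphB receptors sort axons at the chiasm and along the dorsal-ventral axis of the map. Ephb1, which steers ipsilateral axons, averaged 185 ± 45.0 CPM in naive cells (SD, n = 5), 166 ± 14.5 at the presymptomatic stage (n = 4), 157 ± 8.96 at onset (n = 3) and 174 ± 38.4 at peak (n = 4). Ephb2 averaged 78.6 ± 27.6, 69.8 ± 13.4, 86.6 ± 11.1 and 72.2 ± 11.7 CPM in the same order. Ephb3 counted far fewer reads and averaged 9.65 ± 3.72, 10.3 ± 1.403, 11.2 ± 2.46 and 8.77 ± 4.40. In each of these receptors the libraries of every 2 stages overlapped, and none had an unadjusted p under 0.05 in any of the 6 comparisons.

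Ephrins gave values above 0 for 3 of 8 genes at the presymptomatic stage (41.6% of all genes), 6 at onset (48.6% of all genes) and 3 at peak (47.1% of all genes). Efna2, a ligand of EphA receptors (chromosome 10, 80179482 to 80190010, plus strand), was the member with the highest fold change at onset. It had 5.65, 1.36 and 2.26 CPM in onset replicates 1 to 3, against 0.855, 2.85, 1.07, 1.05 and 0.788 in the naive libraries. Presymptomatic libraries held 1.52 to 2.24 CPM and peak libraries 0.850 to 2.57. The high onset value came from replicate 1, and onset replicates 2 and 3 lay inside the naive range. Its log2 fold change was 1.13 ± 0.54 (unadjusted p = 0.0452, edgeR adjusted p = 0.972) and 0.40 without onset replicate 1. The gene held 6 to 83 reads per library.

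Efna5, the other ephrin-A known for the retinal map, averaged 191 ± 58.3 CPM in naive cells and 171 ± 19.1, 183 ± 63.9 and 161 ± 47.9 at the presymptomatic, onset and peak stages. Efnb2, the chiasm ligand, averaged 46.9 ± 7.91, 41.8 ± 3.97, 52.4 ± 14.5 and 41.2 ± 14.3 CPM from naive to peak, and Efnb1 10.7 ± 3.29, 10.53 ± 1.22, 8.07 ± 1.77 and 11.7 ± 5.13. Among the other ephrins, Efna3 had a log2 fold change of 0.51 ± 0.39 at onset and Efna1 of 0.30 ± 0.36 at peak, both within their 95% intervals of 0.

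Semaphorins of classes 3 and 4 had medians on opposite sides of 0 at onset. Class 3, the secreted semaphorins that act through neuropilins, gave values below 0 for 5 of 7 genes with a median of -0.36, while class 4, membrane-bound, gave values above 0 for 5 of 6 genes with a median of 0.06. The standard error in class 4 had a median of 0.33. The classes also differ in length, with 4 of 7 genes of class 3 and 1 of 6 of class 4 at 100 kb or more. The difference between the classes was not tested. Sema3c (chromosome 5, 17574816 to 17730268, plus strand) had the lowest fold change of all members at onset. It counted 58.1, 43.8, 138, 150.4 and 45.0 CPM in the naive libraries and 32.0, 67.0 and 32.2 at onset. Presymptomatic libraries held 50.1, 84.4, 71.2 and 92.9, and peak libraries 42.4, 86.5, 146 and 34.5. Naive replicates 3 and 4 and peak replicate 3 were again the high libraries, at more than any of the other 13. This gave a log2 fold change of -0.99 ± 0.42 (unadjusted p = 0.0270, edgeR adjusted p = 0.972).

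Sema3e, which in the retina is known to guide vessels and axons through plexin D1, gave values of 0.18, -0.45 and -0.12 at the 3 stages. Sema3f, a ligand of neuropilin 2, had 19.0 CPM in onset replicate 3 and 3.42 to 10.9 in all other libraries, with a log2 fold change of 0.62 ± 0.37 at onset. Of class 4, Sema4f had 0.29 ± 0.26 at the presymptomatic stage and 0.23 ± 0.27 at peak. Sema4g (-0.78 ± 0.42), Sema4a (-0.53 ± 0.32) and Sema4b (-0.49 ± 0.31) were among the 5 members with the smallest p below 0 at peak, and none of them reached an unadjusted p under 0.05.

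Sema6d, a transmembrane semaphorin made by midline cells of the chiasm (chromosome 2, 124089918 to 124667789, plus strand), counted 239, 192, 498, 370.5 and 202 CPM in naive libraries. The onset libraries held 189, 233 and 159, the presymptomatic ones 267, 267, 332 and 234, and the peak ones 305, 319, 404 and 172. Naive replicate 3, peak replicate 3 and naive replicate 4 held the highest values of all 16 libraries. The log2 fold change was -0.63 ± 0.29 at onset (unadjusted p = 0.0349, edgeR adjusted p = 0.972), -0.13 at the presymptomatic stage and -0.00 at peak. Sema6b, of the same class, had 0.47 ± 0.36 at onset. Sema6a averaged 95.1 ± 29.2, 93.7 ± 15.0, 109.7 ± 39.9 and 86.0 ± 16.8 CPM from naive to peak. The class 5 semaphorins, which keep neurites in their retinal layers, were steady, with log2 fold changes from -0.15 to 0.14 for Sema5a and Sema5b over the 3 comparisons. Sema5a averaged 244 ± 26.6 CPM in naive cells and 221 ± 25.9 at peak.

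Plexins, the semaphorin receptors, gave values below 0 for 6, 6 and 7 of 9 genes at the 3 stages, and for 5 of 9 at each with scaling by nuclear totals. Plxnb3, a short plexin gene (chromosome X, 73756559 to 73772510, plus strand), counted 9.94, 4.66, 16.3, 16.9 and 5.28 CPM in naive libraries and 4.39, 5.57 and 7.56 at onset. It had 5.59 to 10.9 in presymptomatic libraries and 6.27 to 6.84 in peak libraries other than replicate 3, which had 14.6. The log2 fold change at onset was -0.84 ± 0.41 (unadjusted p = 0.0497, edgeR adjusted p = 0.972) and rested on the same naive libraries as that of Sema3c. Plxnd1, the receptor of Sema3e (chromosome 6, 115954811 to 115995005, minus strand), counted 22.0, 25.0, 15.4, 19.9 and 32.8 CPM in naive libraries and 11.8, 21.1, 13.01 and 12.7 at peak. Peak replicates 1, 3 and 4 lay below every naive library, and peak replicate 2 lay within their range. Its log2 fold change at peak was -0.65 ± 0.26 (unadjusted p = 0.0204, edgeR adjusted p = 1.000).

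Plxnc1, the receptor of semaphorin 7A, had 68.4 to 81.4 CPM in naive libraries and 56.6 to 63.8 in presymptomatic ones, with no overlap. The onset libraries (66.5 to 70.4) lay above all presymptomatic ones and reached into the lower end of the naive range, and the peak libraries (62.5 to 88.6) overlapped both groups. Its log2 fold change at the presymptomatic stage was -0.27 ± 0.18 (unadjusted p = 0.155), and with scaling by nuclear totals neither Plxnc1 nor Epha4 was free of overlap. Plxna1, the chiasm partner of Sema6d, averaged 29.5 ± 6.46, 29.2 ± 6.23, 31.3 ± 4.02 and 28.1 ± 8.93 CPM from naive to peak. Plxna4, a receptor of class 6 semaphorins in retinal layering, averaged 215 ± 27.8, 232 ± 12.4, 229 ± 24.4 and 205 ± 35.5. Plxna3 had a log2 fold change of 0.71 ± 0.39 at peak, where replicate 3 held 19.4 CPM and the other peak libraries 4.35 to 8.36. Nrp1, a co-receptor of class 3 semaphorins, is described with the comparisons between EAE stages.

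Slits and Robos, which hold axons in their tract by repulsion, included the longest members. Slit3 (chromosome 11, 35121456 to 35708507, plus strand) counted 307, 198, 619, 484 and 204 CPM in naive libraries and 185, 269.6 and 204 at onset. The presymptomatic libraries lay close together at 295 to 350.5, and the peak libraries held 258, 289, 481 and 231. Onset libraries fell inside the range of the 3 naive libraries of low receptor share, 198 to 307, apart from onset replicate 1 just below it. The log2 fold change at onset was -0.72 ± 0.31 (unadjusted p = 0.0253, edgeR adjusted p = 0.972). Slit1 averaged 77.6 ± 33.3 CPM in naive cells, 80.1 ± 11.3 at the presymptomatic stage, 89.7 ± 6.20 at onset and 76.2 ± 15.6 at peak, and Slit2 156 ± 30.5, 154 ± 32.3, 144 ± 43.4 and 136 ± 25.5.

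Robo2, the main Slit receptor of ganglion cells (chromosome 16, 73891976 to 75447302, minus strand), counted 608, 549.9, 968, 788 and 616 CPM in naive libraries and 408, 502, 642 and 525 at peak. Onset libraries held 561, 654 and 383, and presymptomatic ones 511, 705, 728 and 728. Peak replicates 1, 2 and 4 lay below all naive libraries and peak replicate 3 did not. The log2 fold change at peak was -0.44 ± 0.21 (unadjusted p = 0.0446, edgeR adjusted p = 1.000), and -0.30 without naive replicate 3. Robo1 was steadier, with 405 ± 42.2 CPM in naive cells, 433 ± 78.6 at the presymptomatic stage, 389 ± 97.5 at onset and 356 ± 26.9 at peak. Robo4, the Robo gene of blood vessels, had a log2 fold change of 0.36 ± 0.30 at peak.

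Netrins and their receptors all gave values below 0 at the presymptomatic stage, 9 of 9 genes, with a median of -0.09. With scaling by nuclear totals 5 of 9 did, and 0 of the 9 had an unadjusted p under 0.05. Ntn1, the ligand at the optic disc (chromosome 11, 68209364 to 68386826, minus strand), had the smallest p of all members at that stage. It counted 42.4, 37.96, 57.5, 76.9 and 47.6 CPM in naive libraries and 49.2, 43.9, 36.1 and 21.0 in presymptomatic ones, of which replicates 3 and 4 lay below the naive range. The log2 fold change was -0.47 ± 0.24 (unadjusted p = 0.0629, edgeR adjusted p = 1.000). Dcc, the attractive receptor, averaged 380.4 ± 64.4, 376 ± 41.8, 339 ± 82.4 and 364 ± 27.0 CPM from naive to peak. Neo1 averaged 37.1 ± 14.5, 29.1 ± 7.79, 24.9 ± 8.999 and 31.4 ± 12.4, with a log2 fold change of -0.57 ± 0.31 at onset and -0.91 without onset replicate 3. Unc5c, a repulsive receptor, averaged 204 ± 39.5, 200.1 ± 28.3, 209 ± 72.1 and 184 ± 32.9. Unc5a had a log2 fold change of 0.37 ± 0.31 at onset and -0.44 at peak.

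**Figure D3:**
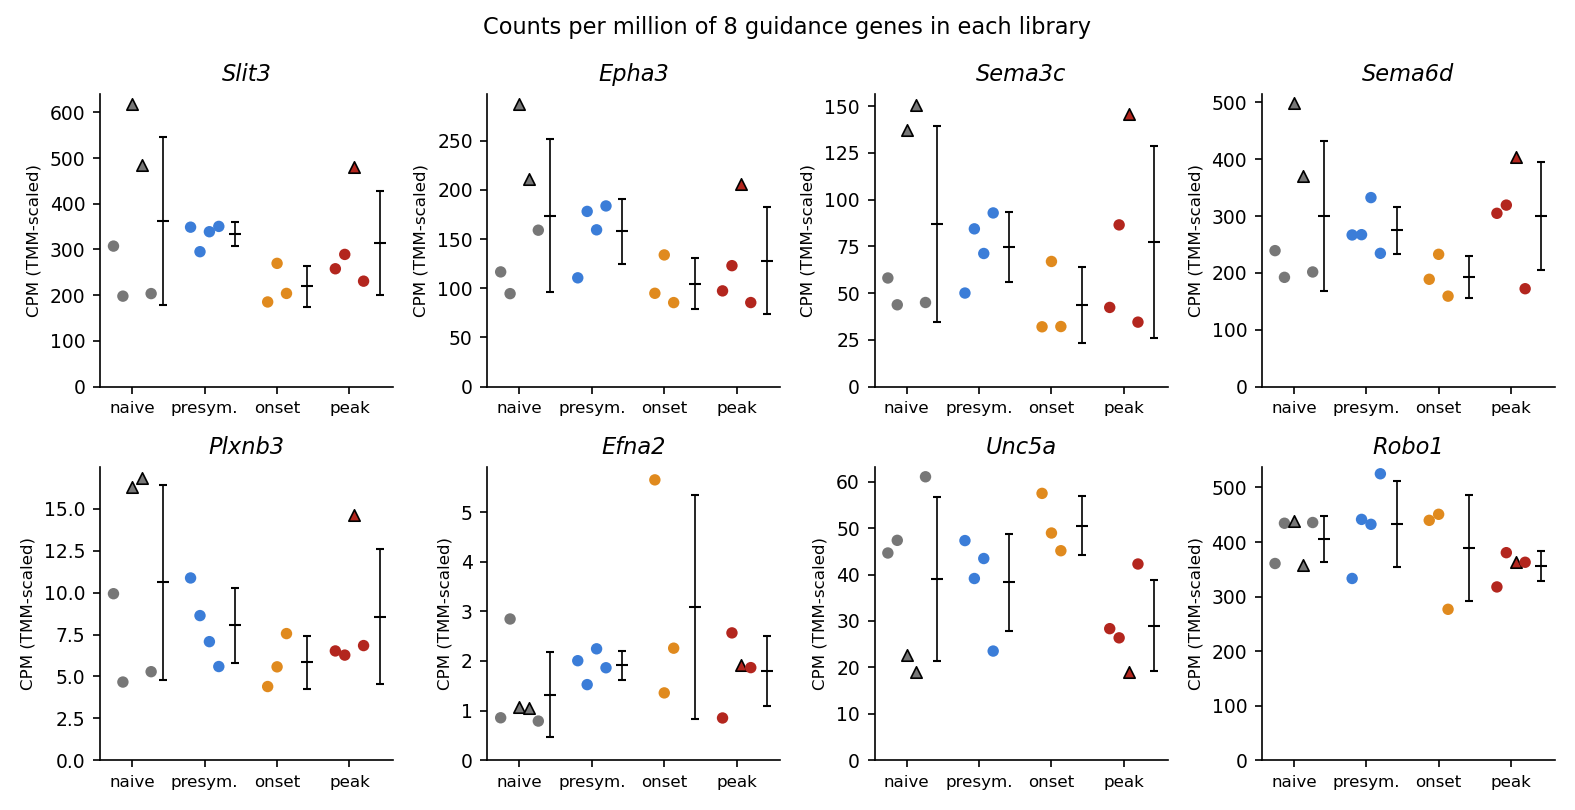
Normalised counts-per-million of 8 guidance genes (y axis) in each of the 16 libraries by stage, with the mean and SD of each stage to the right of its points. Triangles are naive replicates 3 and 4 and peak replicate 3, the libraries of highest receptor share, which hold the top values of Slit3, Epha3, Sema3c, Sema6d and Plxnb3, the lowest of Unc5a, and middle values of Robo1.

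Of the 6 members with an unadjusted p under 0.05 at onset, 5 (Slit3, Epha3, Sema3c, Sema6d and Plxnb3) had their 3 highest values in the 3 libraries of highest receptor share. The same held for 5.13% of all genes tested. The 3 libraries belong to naive (2) and peak (1), and none to onset. As the 5 genes were picked for lower values at onset than in naive libraries, high naive libraries are in part built into that choice. No member's onset libraries lay all above (1.6% of all genes) or all below (0.936% of all genes) the naive ones. Without naive replicate 3 the count of 6 became 1 (Neo1), without naive replicate 4 it became 0, and without onset replicate 1 it also became 0. Without onset replicate 3 it was 5, with Efna2 and Plxnb3 kept and Ephb4, Neo1 and Sema3g in place of Slit3, Epha3, Sema3c and Sema6d. With the receptor share as a covariate it became 1 (Plxnd1), and the log2 fold changes at onset of the 5 genes moved to -0.14 for Slit3, -0.24 for Epha3, -0.21 for Sema3c, -0.17 for Sema6d and -0.17 for Plxnb3, while Efna2 stood at 0.89. The share is not balanced over the stages, so this fit cannot fully tell it apart from stage. The part of receptor share in the onset values was not tested.

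Some guidance genes were higher and some lower in the 3 libraries of highest receptor share. Against the other 13 libraries, 6 of 69 guidance genes were higher in all 3 (5.13% of all genes, 13.6% of all tested genes of 100 kb or more): Sema6d, Sema3c, Epha5, Slit3, Epha3 and Plxnb3. All of these but Plxnb3 are among the 33 guidance genes of 100 kb or more, which thus stood near the share of all genes of that length. Another 6 were lower in all 3 (2.03% of all genes, 4.23% of those of 100 kb or more): Plxna2, Sema4a, Sema4d, Unc5a, Ephb3 and Sema6b. As ratios of mean CPM, Sema3c stood at 2.54, Plxnb3 at 2.32, Slit3 at 1.97, Epha5 at 1.90 and Epha3 at 1.88, and Unc5a at 0.474 and Sema6b at 0.445. All 6 class 4 semaphorins (0.459 to 0.740) and all 5 ephrins-A (0.536 to 0.733) had ratios below 1, and both DCC receptors (1.19 and 1.32) had ratios above 1. Slits ran from 0.614 for Slit1 to 1.97 for Slit3. Median ratios were 1.10 for the 33 guidance genes of 100 kb or more and 0.685 for the 29 under 30 kb, against 0.958 for all tested genes and 1.02 for all tested genes of 100 kb or more. These libraries were grouped by a background measure and not by a label of the study, so the ratios are a description.

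**Figure D4:**
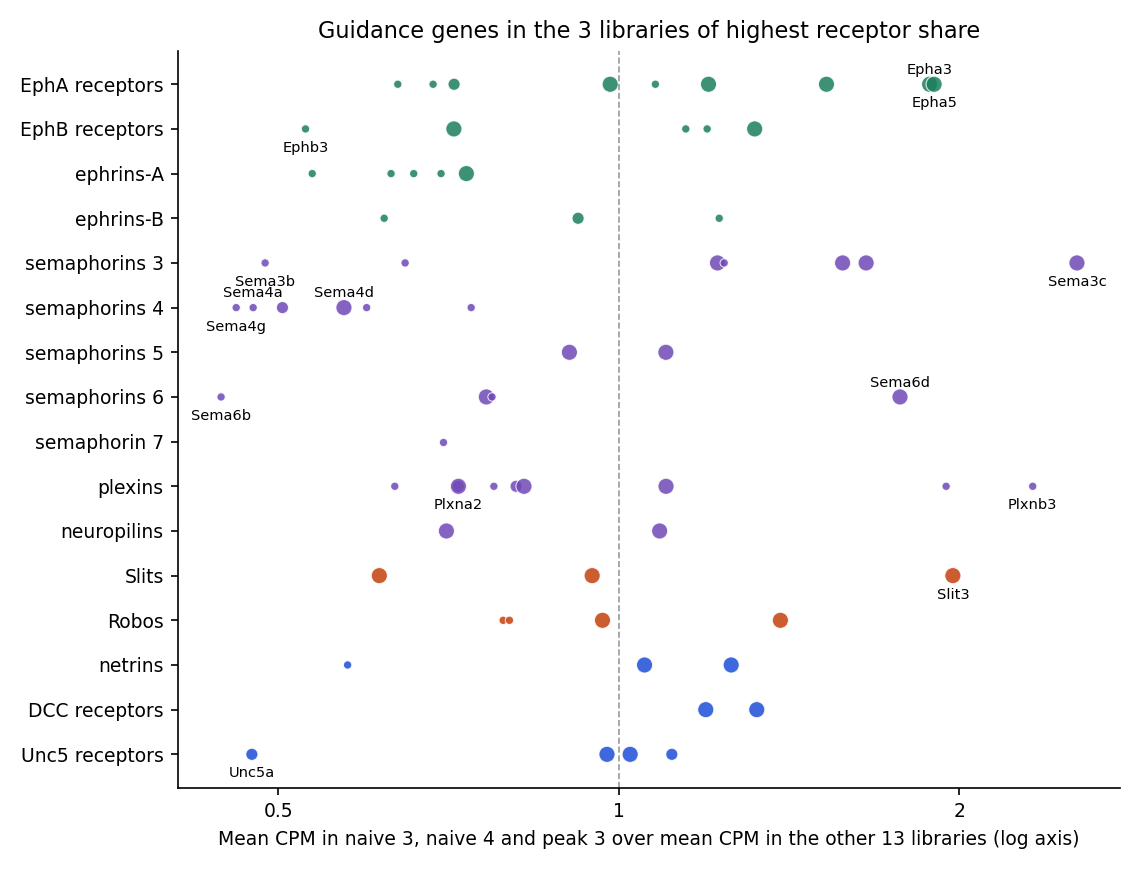
Ratio of mean CPM in naive replicates 3 and 4 and peak replicate 3 to mean CPM in the other 13 libraries (x axis, log scale), one point per guidance gene, by family. Small, middle and large points mark spans under 30 kb, 30 to under 100 kb, and 100 kb or more. Class 4 semaphorins and ephrins-A lie wholly left of 1, and Sema3c, at 2.54, lies farthest right.

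Long and short guidance genes had medians on opposite sides of 0 at onset, which rested on several libraries. Of the 33 guidance genes of 100 kb or more, 25 had values below 0, with a median of -0.11, while of the 29 under 30 kb 20 had values above 0, with a median of 0.12. Over all nuclear genes tested, 59.1% of those of 100 kb or more and 50.2% of those under 30 kb lay below 0, with medians of -0.06 and -0.00. Across the 69 guidance genes the Spearman rank correlation of fold change with span was -0.475, against -0.0530 across all 29893 nuclear genes. Genes of these lists share the same libraries and so are not independent. Without onset replicate 3, 17 of the 33 long genes lay below 0 with a median of -0.01, and 14 of the 29 short ones did with a median of 0.01. When naive replicate 3 or 4 or the first onset replicate was left out, 14, 14 and 15 of the short genes lay below 0, with medians of 0.00, 0.01 and -0.01, while the long ones kept medians of -0.10, -0.17 and -0.20. With the receptor share as a covariate, 26 of the 33 long and 19 of the 29 short genes lay below 0, with medians of -0.10 and -0.09. Rod markers were read beside this, and 8 of 8 tested had values above 0 at onset (48.6% of all genes), with a median of 0.95. Of these, 6 had an unadjusted p under 0.05 (4.95% of all genes) and 0 passed the adjusted threshold. Their summed CPM was 132 to 286 in naive and 289 to 730.2 in onset libraries. Per kb, their summed level was 1.29, 1.32 and 3.25 in the 3 onset libraries and at most 1.27 in naive ones. The highest onset library thus stood far above the others, which lay just above the naive range. The part of rods in the onset values of the guidance genes was not tested. At peak, long and short guidance genes had the same median, -0.14, while 30 of the 33 long and 17 of the 29 short ones lay below 0. Over all nuclear genes tested, 63.1% of those of 100 kb or more and 51.5% of those under 30 kb did so. Their medians at peak were -0.06 and -0.02. With scaling by nuclear totals, 23 of the long and 15 of the short guidance genes lay below 0 at peak.

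The mean log2 CPM of the long genes minus that of the short ones was 4.79 in naive replicate 3, 4.63 in peak replicate 3 and 4.58 in naive replicate 4, above all other libraries, and lowest in onset replicate 3 (3.57). The other onset libraries held 3.98 and 4.50, the other naive libraries 3.93 to 4.10, the presymptomatic libraries 3.92 to 4.47 and the other peak libraries 3.82 to 4.26. Libraries of each stage thus overlapped those of the others.

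**Figure D5:**
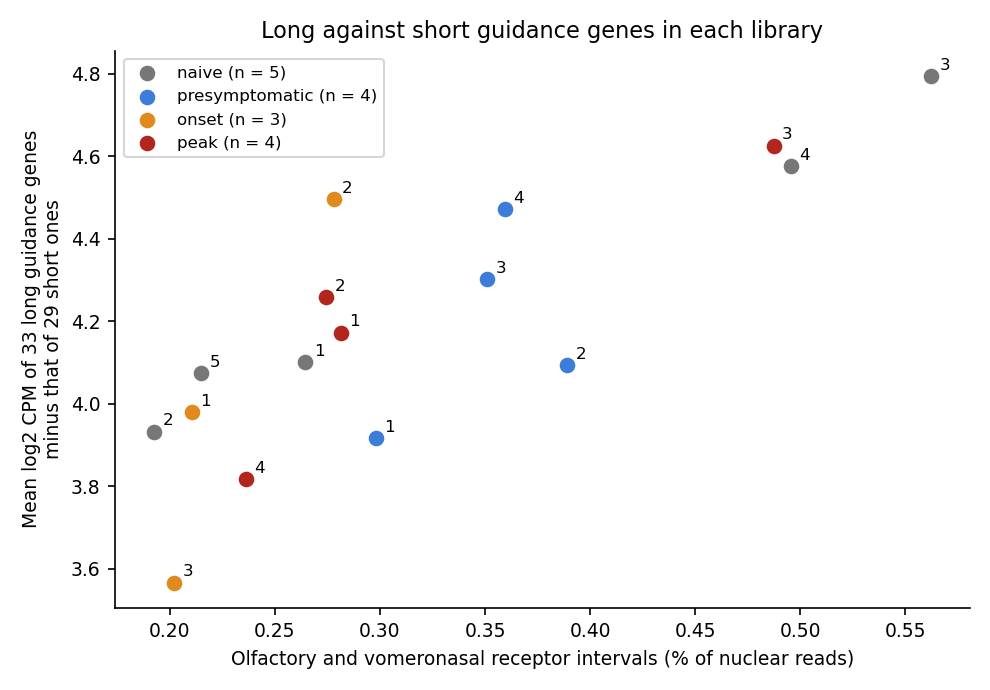
Mean log2 CPM of the 33 guidance genes of 100 kb or more minus that of the 29 under 30 kb (y axis) against the share of nuclear reads in olfactory and vomeronasal receptor intervals (x axis, percent), one point per library, numbered by replicate and coloured by stage. The 3 libraries of highest share have the 3 highest differences, and onset replicate 3 has the lowest, 3.57.

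At peak, 52 of the 69 guidance genes had values below 0. Semaphorins did so for 14 of 20 genes, Slits and Robos for 6 of 7, and netrins with their receptors for 8 of 9 (12, 5 and 7 with scaling by nuclear totals), while both neuropilins had values above 0. The 2 members with an unadjusted p under 0.05 were Plxnd1 and Robo2. This count became 0 without peak replicate 1, 1 without naive replicate 5 or presymptomatic replicate 2 or 3, 4 without naive replicate 3, and 5 without naive replicate 4 or peak replicate 3. Plxnd1 was no longer among these members without peak replicate 1, peak replicate 4 or naive replicate 5. Robo2 was not among them without naive replicate 3 or 4, presymptomatic replicate 2 or 3, or peak replicate 1, 2 or 4. Ganglion cell markers, 16 genes, summed to 637 to 877 CPM in naive and 817 to 1194 in peak libraries, and 14 of 16 had values above 0 at peak (median 0.25, 0 with an unadjusted p under 0.05). Amacrine and horizontal cell markers had values below 0 for 7 of 8 genes at peak (median -0.42, summed CPM 303 to 756 in naive and 301 to 515 in peak libraries). Markers of Müller glia and astrocytes did so for 5 of 6 (median -0.50, 2 with an unadjusted p under 0.05, against 3.61% of all genes). The part of these cells in the peak values of the guidance genes was not tested. No member's peak libraries lay all above (0.502% of all genes) or all below (0.475% of all genes) the naive ones.

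Between EAE stages no member passed the adjusted threshold either, with 0 of 71 called (0% of all genes) in each of 3 comparisons. From presymptomatic to onset, 2 members had an unadjusted p under 0.05 (4.13% of all genes). Ntn1 was higher at onset, where its libraries held 57.5, 59.8 and 59.0 CPM, all above the presymptomatic range of 21.0 to 49.2, as 5.38% of all genes were. Its log2 fold change was 0.64 ± 0.27 (unadjusted p = 0.0269, edgeR adjusted p = 1.000). Sema3e was lower at onset, with 72.3, 97.6 and 62.0 CPM against 96.9, 139, 132 and 112, and a log2 fold change of -0.63 ± 0.30 (unadjusted p = 0.0418, edgeR adjusted p = 1.000). Plxnc1 was the other member with all onset libraries above the presymptomatic ones. All onset libraries of Sema6d, Nrp1 and Slit3 lay below all presymptomatic ones, as for 4.69% of all genes. The count of 2 became 0 without presymptomatic replicate 3 and 4 without naive replicate 3 or onset replicate 2, and 1 without presymptomatic replicate 2 or 4 or onset replicate 1. Without onset replicate 3 it stayed at 2, but the members were Ephb4 and Sema3g, so neither Ntn1 nor Sema3e was among them.

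From onset to peak, 5 members had an unadjusted p under 0.05 (6.65% of all genes): Nrp1, Sema6d and Plxna3 with higher, and Sema3f and Unc5a with lower values at peak. Nrp1, the co-receptor of class 3 semaphorins and of vascular growth factor (chromosome 8, 128358283 to 128505476, plus strand), held 65.1, 71.98, 61.2 and 65.3 CPM at peak. It held 48.8, 47.1 and 44.7 at onset, 49.1 to 54.1 at the presymptomatic stage and 45.8 to 65.1 in naive libraries. The 4 peak libraries lay above every onset library (as for 2.56% of all genes) and every presymptomatic library (as for 1.51%), and 2 of them overlapped the naive range. Its log2 fold change was 0.49 ± 0.21 from onset to peak (unadjusted p = 0.0282, edgeR adjusted p = 0.737) and 0.26 ± 0.18 from naive to peak. Unc5a held 28.3, 26.4, 19.0 and 42.3 CPM at peak, all below 57.5, 49.0 and 45.1 at onset (as for 4.18% of all genes), with a log2 fold change of -0.81 ± 0.33 (unadjusted p = 0.0204, edgeR adjusted p = 0.737). Sema4a was the other member with all peak libraries (8.19 to 16.2 CPM) below all onset ones (17.3 to 25.6 CPM). Unc5a was also among the genes lowest in the libraries of high receptor share, with 22.7 and 19.1 CPM in naive replicates 3 and 4. From presymptomatic to peak, 0 members had an unadjusted p under 0.05 (3.41% of all genes), and 0 had all peak libraries below the presymptomatic ones (1.21% of all genes). The count of 5 from onset to peak became 1 without onset replicate 1 or peak replicate 3 and 8 without onset replicate 3. Nrp1 was no longer among these members without any one onset replicate or peak replicate 2, nor Unc5a without onset replicate 1 or peak replicate 3.

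Further lists of the guidance pathway were read the same way, and 0 of their genes passed the adjusted threshold of edgeR in any comparison with naive cells. Other guidance cues and co-receptors (28 genes) had 10 genes above 0 at the presymptomatic stage, 21 at onset and 10 at peak, with medians of -0.09, 0.09 and -0.12. In this list 1 gene had an unadjusted p under 0.05: Ptch1, a receptor of hedgehog signals, at peak with -0.41 ± 0.20 (3.61% of all genes at peak). Effectors of guidance signalling inside the cell (48 genes) had 15, 29 and 21 genes above 0, with medians of -0.06, 0.07 and -0.06. Rock2, a kinase that acts on the actin skeleton, had 0.54 ± 0.24 at onset. Arhgef11, which encodes a guanine nucleotide exchange factor, had 0.59 ± 0.27 at peak. They were the 2 of this list with an unadjusted p under 0.05 (4.95% of all genes at onset and 3.61% at peak). Genes that pattern the retina and its projection (15 of 16 tested, transcription factors apart from the cadherin gene Cdh3) had 6, 9 and 9 genes above 0, with medians of -0.05, 0.05 and 0.07.

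Markers of retinal and other cell types were examined in the same libraries, and no marker gene was at 0 over a whole stage. Markers of ganglion cells stood at a median percentile of 82.5 in naive density, and rod markers above them at 87.9. Median naive percentiles of the other lists were 91.6 for amacrine and horizontal cells, 74.4 for Müller glia and astrocytes, 68.4 for bipolar cells, 62.7 for cones, 59.3 for endothelium, 48.6 for pigment epithelium, 40.4 for oligodendrocytes, 39.9 for lymphocytes and 17.7 for microglia and macrophages. The part of these cell types in the values of the guidance genes was not tested.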

How the data were processed

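Sorted cells were lysed and transposed and the libraries sequenced, and cutadapt, HISAT2 and HTSeq are the tools listed, with no version, in the submitters' processing notes. The deposited table gives, per library, a count of reads for each gene interval and an RPKM value made from it by the authors. The length that returns the deposited RPKM values is the gene's span less 2000 bp, so intervals are trimmed gene bodies. Genome build, duplicate handling and read shift are not given in the sources used here.

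Counts were tested with edgeR 4.0.16 (R 4.3.3): intervals kept by filterByExpr (minimum count 10, minimum total 15), TMM scaling, a quasi-likelihood fit of 4 stage means over all 16 libraries, and Benjamini-Hochberg adjustment over 29902 intervals, with 0.05 as threshold. CPM are TMM-scaled on library totals that include mitochondrial intervals. Sums over marker lists are scaled by nuclear totals alone and so are on a different scale. One rod marker of the fixed list is not reported here. The code was tested on simulated data. RPKM served as an alternative level. DESeq2 1.42.0 and limma 3.58.1, other scalings and filters, and omission of each library were alternatives.

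Members and gene lists were chosen with earlier results of these data known. Named members are, for each stage against naive, the 5 of smallest p above and the 5 below 0, the 5 highest and 5 lowest in naive density (intervals of at least 500 bp), and 25 genes known from retinal wiring. Others, named for an unadjusted p under 0.05 or for libraries that do not overlap, were chosen after their values were seen. Library totals are given in the text, and p-values cover the spread between libraries.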

Additional observations from a re-analysis of the deposited data

Results flagged for a closer look

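In groups of 4 or 5 libraries, 10 values of named genes lay far from the rest of their stage (gap over range above the 95% limit of Dixon's test) among 150 groups looked at, of which about 5% would be flagged by chance. Long receptors were among them: Robo2 had 511 CPM in presymptomatic replicate 1 against 705 to 728 in the others, and Ephb1 had 144.6 CPM in presymptomatic replicate 4 against 172 to 175. Neo1 was flagged at 2 stages, with 62.6 CPM in naive replicate 4 against 28.1 to 33.4 and 49.75 CPM in peak replicate 1 against 22.7 to 26.8. Plexins were flagged 3 times: Plxnb3 with 14.6 CPM in peak replicate 3 (others 6.27 to 6.84), Plxnc1 with 56.6 CPM in presymptomatic replicate 2 (63.4 to 63.8) and Plxnd1 with 21.1 CPM in peak replicate 2 (11.8 to 13.01). Semaphorins were flagged for Sema4f, with 9.08 CPM in presymptomatic replicate 4 (15.4 to 16.5), and Sema5b, with 32.9 CPM in peak replicate 1 (52.2 to 54.3). Efna2 had 2.85 CPM in naive replicate 2 against 0.788 to 1.07.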

How the results depend on the processing

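The counts of members past the adjusted threshold of edgeR stayed at 0 in all 7 comparisons under 202 alternative values (DESeq2, limma with and without quality weights, other scalings and filters, a receptor-share covariate, and omission of each library). The median log2 fold change of members ranged from -0.11 to 0.00 at the presymptomatic stage, from -0.12 to 0.07 at onset and from -0.18 to -0.07 at peak, each shift within the spread of the members' mean between libraries of a stage (SD 0.109). Of 104 gene values under 3016 alternative fits, Plxnb3 at the presymptomatic stage turned from -0.37 to 0.056 under limma with quality weights; the cause was not tested. Another 22 gene values and 14 of 1479 family medians moved past their SE or SD without a call. Shifts past the SE were counted only for retinal wiring genes that had not been picked by p in that comparison. For genes picked by p only a change of sign or a call was counted. Their larger shifts, such as those at onset with the receptor share as a covariate, are therefore not among the 22. Members free of overlap between the presymptomatic and naive stages numbered 2, and 0 with scaling by nuclear totals, an alternative added after the data were seen. Members with an unadjusted p under 0.05 numbered 2 by limma-trend and 4 by limma with quality weights at onset (6 by edgeR). They numbered 2 and 6 from onset to peak (5 by edgeR), and 2 and 8 from the presymptomatic stage to onset (2 by edgeR). The shares of all genes under limma are not given beside these counts. The median naive percentile of members kept within its SD of 5.82 in all 7 alternatives.

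Libraries of the same replicate number did not stand out as alike. The correlation of deviations between them had a median of -0.00586 (from -0.342 to 0.373), against 0.0126 between libraries of other numbers. Of 16 libraries, 2 correlated best with a library of their own number. Such values cannot show whether the numbers pair the libraries. With the number as a replicate block 0 members passed the adjusted threshold in any comparison, the medians were -0.00, 0.07 and -0.12 at the presymptomatic, onset and peak stages, and 0, 4 and 1 members had an unadjusted p under 0.05.

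In 9 of the 71 tested members some library held under 10 reads. For 25 of 71 the 95% interval at onset allowed a 2-fold change, 8 of them of 100 kb or more.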
